A study of Mus musculus with 12 samples.

Results

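Complement is a cascade of plasma and tissue proteins whose activation fragments tag material for removal. The 9 genes described here cover the recognition molecule C1q (*C1qa*, *C1qb*, *C1qc*), the early components *C2* and *C4b*, the central component *C3*, the C1 inhibitor gene *Serping1*, and the anaphylatoxin receptors *C3ar1* and *C5ar1*. They were chosen by gene name among the probes of the array, where all 9 were found, with 11 probes on 29 spots, out of 29608 named genes. Hippocampal RNA of 12 adult female mice, about 12 weeks old and in diestrus, was profiled on 6 Agilent 2-colour arrays. The groups were 4 MRL/lpr mice, which carry the loss-of-function *Fas* mutation lpr and develop lupus-like disease, 4 mice labelled Fn14ko, which carry the same mutation with a knockout of *Tnfrsf12a* (the gene of Fn14, the receptor of the cytokine TWEAK), and 4 MRL/MpJ mice (MRL/+ in the study), the background without lpr. No treatment was given to any group. MRL/lpr mice and those labelled Fn14ko were littermates from 1 breeder and MRL/MpJ mice came from another supplier, so supplier and the lpr mutation cannot be told apart. Each array held 2 mice of a strain, replicates 1 and 3 labelled with Cy3 and replicates 2 and 4 with Cy5, and a strain had both its arrays on 1 slide shared with no other strain, so slide and strain cannot be told apart either.

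C1q binds antibody complexes, dying cells and synapses, and starts the classical pathway, in which C4 and C2 form the enzyme that splits C3. C1 inhibitor, the product of *Serping1*, blocks the proteases attached to C1q. The fragments C3a and C5a act through C3ar1 and C5ar1. In the brain, microglia are the main source of C1q and carry both receptors, astrocytes can make C3 and C4, and C1q and C3 take part in the removal of synapses.

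The sequences given are those of 5 probes of 60 bases, 2 for *C3* and 1 each for *Serping1*, *C1qa* and *C1qb*. They are printed 5′ to 3′ in lower case, with no part marked, because 2 probes of *C3* and 2 of *Serping1* do not give the same values. All lie on the minus strand of mm9: the *C3* probes at chr17:57343416-57343475 (A_51_P110301, on 10 spots) and chr17:57343678-57343737 (A_55_P2038525, 1 spot), *C1qa* at chr4:136452409-136452468 and *C1qb* at chr4:136436578-136436637. The *Serping1* probe A_51_P376238 covers 1507 bases, chr2:84605968-84607474, with its 60 bases and so spans an intron. It was not valid in all 12 samples, so the *Serping1* values of all 12 come from the other probe, which is not printed.
C3 A_51_P110301: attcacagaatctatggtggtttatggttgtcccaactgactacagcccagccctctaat
C3 A_55_P2038525: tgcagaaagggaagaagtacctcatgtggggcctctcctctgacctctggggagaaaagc
Serping1 A_51_P376238: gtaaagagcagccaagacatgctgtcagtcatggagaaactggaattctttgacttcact
C1qa A_51_P181451: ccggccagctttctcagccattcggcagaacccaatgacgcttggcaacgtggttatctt
C1qb A_51_P351860: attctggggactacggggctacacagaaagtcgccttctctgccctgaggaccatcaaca

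The other probes lie at chr4:136445766-136445825 (*C1qc*, 10 spots), chr17:34999575-34999634 (*C2*), chr17:34865328-34865387 (*C4b*), chr2:84605663-84605722 (*Serping1*, A_55_P1992889), chr6:122798222-122798281 (*C3ar1*) and chr7:16832243-16832302 (*C5ar1*), all on the minus strand of mm9. Exon and UTR annotation of these positions was not used here. The *C4b* probe is listed with transcripts of both *C4b* and its near-identical neighbour *C4a*, so its value is the sum of what it binds from both genes.

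Levels are background-subtracted intensities divided by the median of that sample's channel over the 10877 spots valid in all 12 samples, so a level of 1 is the median of the channel. The array of MRL/lpr replicates 3 and 4 was weak. Its median foreground was 1.73 to 1.93 times background, against 4.42 to 12.6 times in the other 10 samples, and 19.6 to 25.2% of its probe spots were called well above background, against 29.6 to 68.1%. The values of the 7 complement genes other than *C3ar1* and *C5ar1* are therefore also given without that array, on levels divided by the median over the 25621 spots valid in those 10 samples, where MRL/lpr is 2 mice on 1 array. This rescaling also moves the difference between mice labelled Fn14ko and MRL/MpJ, though neither has a mouse on that array. The spread shared by all comparisons is then estimated without that array too. In the Cy5 channels of MRL/MpJ (replicates 2 and 4) the negative-control spots had a median level of 0.187 to 0.255, against 0.00136 to 0.0275 in the other 8 samples outside the weak array. On the weak array this median was 0.0721 (replicate 3) and 0.341 (replicate 4), and the negative controls reached at least 1.51 and 2.55. The targeted *Tnfrsf12a* had levels of 0.177, 0.160, 0.189 and 0.151 in mice labelled Fn14ko, below all MRL/lpr (0.241 to 0.439) and all MRL/MpJ mice (0.283 to 0.629), but its probe was called well above background in each of the 4. Where its probe lies relative to the deleted part is not given in the sources used here. The lpr gene *Fas* read 0.0384, 0.0281, 0.0538 and 0.253 in MRL/lpr, 0.0415 to 0.0571 in mice labelled Fn14ko and 0.0487 to 0.226 in MRL/MpJ. Without the weak array it was below all MRL/MpJ mice in MRL/lpr (log2 −1.74, adjusted p = 0.0234), while mice labelled Fn14ko, which also carry lpr, overlapped MRL/MpJ (−1.05, adjusted p = 0.058). *Wfs1*, a marker of CA1 pyramidal cells, was well above background in all 12 samples, and *Prox1*, a marker of dentate granule cells, in 4 MRL/lpr, 2 labelled Fn14ko and 2 MRL/MpJ mice.

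**Figure D1:**
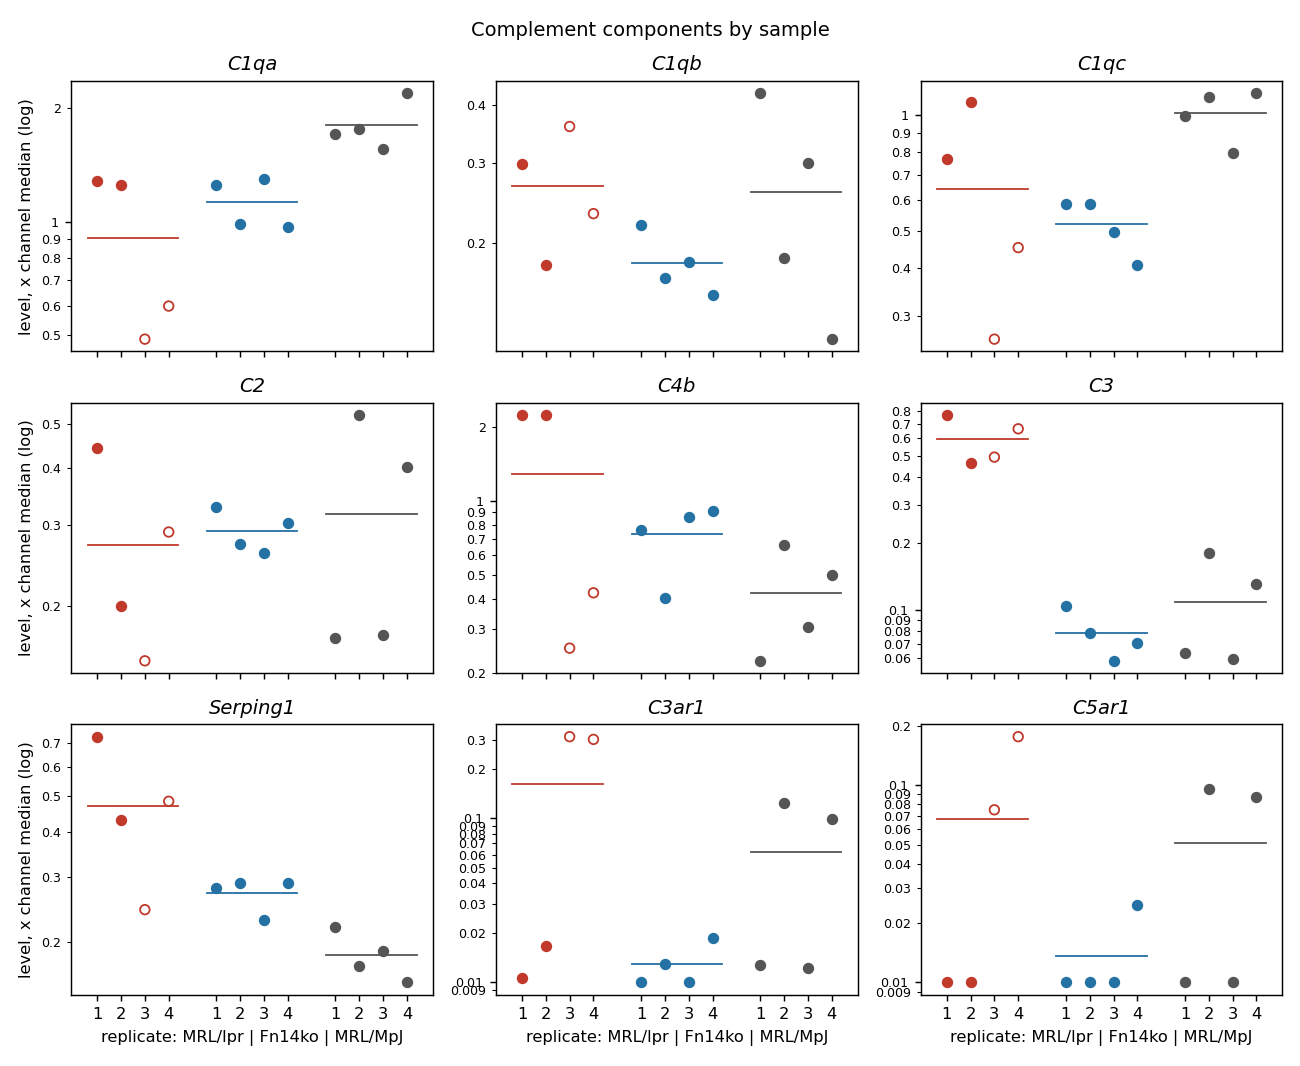
Level of each complement gene in every sample, as a multiple of the channel median on log axes, with replicates 1 to 4 of MRL/lpr (red), of mice labelled Fn14ko (blue) and of MRL/MpJ (grey). Lines are group means and open circles are the 2 MRL/lpr mice of the weak array. *C3* is the gene in which all 4 MRL/lpr mice (0.463 to 0.766) lie above the other 8 samples (0.0585 to 0.181). The 2 MRL/lpr mice of the weak array (0.493 and 0.663) lie within the spread of that array's negative controls.

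*C3*, whose product all complement pathways converge on, was 6.01-fold higher in MRL/lpr than in MRL/MpJ and 7.66-fold higher than in mice labelled Fn14ko. The level is the mean of 2 probes, A_55_P2038525 (1 spot) and A_51_P110301, of which 2 of 10 spots were valid in all 12 samples. *C3* levels were 0.766, 0.463, 0.493 and 0.663 in MRL/lpr replicates 1 to 4. They were 0.104, 0.0782, 0.0585 and 0.0706 in mice labelled Fn14ko and 0.0635, 0.181, 0.0594 and 0.130 in MRL/MpJ. All 4 MRL/lpr mice lay above the other 8, among which both groups overlapped. In replicates 3 and 4 of MRL/lpr, *C3* lay above the median of the negative controls (0.0721 and 0.341). It was within their spread, which reached at least 1.51 and 2.55, so these 2 readings cannot be told from negative controls. On most of its spots *C3* was called well above background in 2 of 4 MRL/lpr mice, and on the single spot of A_55_P2038525 in 3. The mean was 0.596 ± 0.143 in MRL/lpr (SD, n = 4), 0.0779 ± 0.0194 in mice labelled Fn14ko and 0.108 ± 0.0581 in MRL/MpJ. Tested with limma across all 8864 genes that had a spot valid in all 12 samples, with the dye as a term and p-values adjusted by Benjamini-Hochberg, the log2 difference was 2.59 (SE 0.44, adjusted p = 0.0087) against MRL/MpJ and 2.94 (SE 0.44, adjusted p = 0.00887) against mice labelled Fn14ko. These comparisons share the MRL/lpr samples. Mice labelled Fn14ko differed from MRL/MpJ by −0.35 (SE 0.44, adjusted p = 0.803), a sign that turned in 5 of 17 other settings. Separation of groups was not rare on these arrays, since all 4 MRL/lpr mice lay above all 4 MRL/MpJ mice in 4.58% of genes and above all 4 mice labelled Fn14ko in 11.2%.

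Both *C3* probes put MRL/lpr highest. The probe on 10 spots had a median level of 0.807, 0.531, 0.206 and 0.394 in the 4 MRL/lpr mice, of 0.0304 to 0.0865 in mice labelled Fn14ko, and of 0.0281, 0.118, 0.0298 and 0.106 in MRL/MpJ. The second probe read 0.583, 0.314, 0.691 and 0.770 in MRL/lpr, 0.0824 to 0.108 in mice labelled Fn14ko and 0.0914 to 0.227 in MRL/MpJ. On the weak array the probe with 10 spots was lower and the second was higher than in MRL/lpr replicates 1 and 2. The spread over the 10 spots was a coefficient of variation of 10.5 to 27.8% in the 10 other samples and of 113 to 135% in the 2 of the weak array. There, 2 spots read 1.99 to 2.02 (replicate 3) and 2.63 to 2.81 (replicate 4) while the other 8 read 0.141 to 0.325 and 0.242 to 0.577. The probe spots around those 2 were bright as well, with a median of 1.51 to 1.53 and 1.84 to 2.28, against 0.148 and 0.305 over the whole channel. In MRL/MpJ replicates 2 and 4 both probes lay below the median of the negative controls, while the Cy3 mice of that strain, at 0.0635 and 0.0594, lay above theirs (0.00329 and 0.00332).

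**Figure D2:**
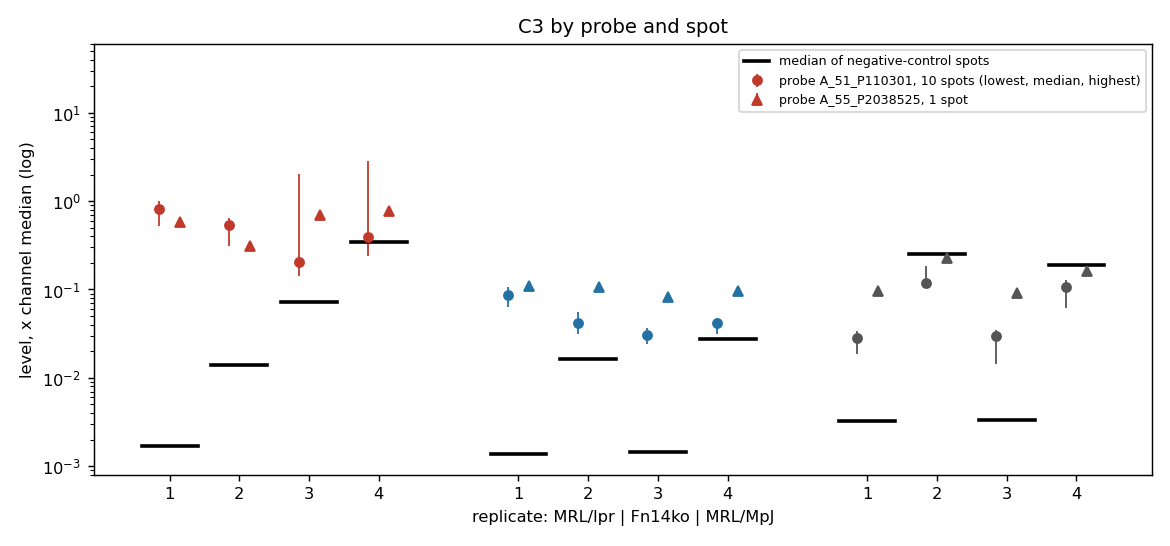
Level of *C3* by probe in every sample, as a multiple of the channel median on a log axis. Circles with lines give the median, lowest and highest of the 10 spots of one probe, triangles the single spot of the other, and black bars the median of the negative-control spots. MRL/lpr replicates 1 and 2 are at 0.307 or above on every spot, while in MRL/MpJ replicates 2 and 4 both probes are under the negative controls.

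Without the weak array, *C3* was 6.27-fold higher in MRL/lpr than in MRL/MpJ (log2 2.65, SE 0.35, adjusted p = 0.000922, limma over 17936 genes) and 6.99-fold higher than in mice labelled Fn14ko (log2 2.81, SE 0.35, adjusted p = 0.00108). The direction was the same under all 17 other settings of the limma fit. The call was lost in 3 of these 17 in each comparison. With array as a random block the adjusted p was 0.272 and 0.276, and with the Cy3 samples only 0.364 and 0.485. The Cy3 samples are replicates 1 and 3 of each strain, of which MRL/lpr replicate 3 is on the weak array. In that setting 0 genes of any kind were called against MRL/MpJ, so it could not have kept the call of *C3* there. The other loss was with scaling on all probe spots against MRL/MpJ (log2 2.05). Against mice labelled Fn14ko it was with negative controls subtracted and the weak array left out. The lowest adjusted p, 0.000144 and 0.000162, came with array as a block without the weak array. There the fitted correlation within arrays was negative (−0.26), and 5135 genes were called against MRL/MpJ, where 2818 were without the block. *C3* stayed past the threshold with any 1 mouse left out (adjusted p 0.00759 to 0.0351 and 0.00591 to 0.0492).

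Of the 9 genes, the bases before the start of transcription could be read for 5 (*C3*, *C1qb*, *C1qc*, *C3ar1*, *C5ar1*). Those of *C3* are printed because it is the gene called in both comparisons of MRL/lpr with all 12 samples. The 250 bases upstream of its start, from RefSeq at chr17:57228137-57228386 of GRCm38.p6 on the minus strand, are given with the match to a C/EBP-type motif in capitals. This build differs from that of the probe positions.
C3 upstream: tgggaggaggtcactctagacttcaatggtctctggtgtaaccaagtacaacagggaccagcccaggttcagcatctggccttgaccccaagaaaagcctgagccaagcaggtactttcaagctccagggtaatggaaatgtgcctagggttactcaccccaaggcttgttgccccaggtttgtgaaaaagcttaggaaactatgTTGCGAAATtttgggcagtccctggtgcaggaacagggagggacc
The motif TTGCNNAAT, searched on both strands, begins 45 bases before the start and occurs in 2.11% of 32851 mouse promoter windows of the same length. The letters of a STAT site (TTCNNNGAA, in 7.02% of windows), the interferon-stimulated response element (2.98%), a TATA box (TATAAA, 12.4%) and the NF-kB consensus (3.90%) are not in this window. Of the 4 other genes with a window, *C1qc* held 1 match to NF-kB and *C3ar1* 1 to TATAAA. A match is a description of letters and not a site.

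None of the 3 chains of C1q was called higher in MRL/lpr with all 12 samples. *C1qa* and *C1qc* were highest in MRL/MpJ, and none of the 3 passed the threshold in any comparison of all 12 samples. *C1qa* levels were 1.28, 1.25, 0.489 and 0.598 in MRL/lpr, 1.25, 0.984, 1.30 and 0.970 in mice labelled Fn14ko, and 1.70, 1.76, 1.56 and 2.19 in MRL/MpJ. All MRL/MpJ mice lay above the 8 others, which overlapped, as MRL/MpJ did against MRL/lpr in 11.6% of genes and against mice labelled Fn14ko in 14.1%. The log2 difference of MRL/lpr from MRL/MpJ was −1.11 (SE 0.33, adjusted p = 0.0539) and that of mice labelled Fn14ko −0.68 (SE 0.33, adjusted p = 0.359). They were −0.33 (SE 0.18, adjusted p = 0.21) and −0.43 (SE 0.14, adjusted p = 0.0569) without the weak array, where the groups overlapped.

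*C1qc* levels, from the 1 of its 10 spots that was valid in all 12 samples, were 0.770, 1.08, 0.260 and 0.451 in MRL/lpr, 0.588, 0.587, 0.497 and 0.406 in mice labelled Fn14ko, and 0.994, 1.12, 0.795 and 1.14 in MRL/MpJ. Mice labelled Fn14ko lay below all MRL/MpJ mice. Without the weak array all 10 spots could be used, and the rescaled levels were 3.80 and 3.83 in MRL/lpr, 2.29 to 3.02 in mice labelled Fn14ko and 4.07 to 4.62 in MRL/MpJ, with no overlap between any 2 strains. In these 10 samples mice labelled Fn14ko lay below all MRL/MpJ mice in 9.10% of genes and MRL/lpr did in 20.0%. MRL/lpr, here 2 mice of 1 array, lay above all mice labelled Fn14ko in 16.1%. There *C1qc* was 1.64-fold lower in mice labelled Fn14ko than in MRL/MpJ (log2 −0.72, SE 0.13, adjusted p = 0.00632; with all 12 samples −0.96, SE 0.37, adjusted p = 0.232). MRL/lpr differed by 0.53 from mice labelled Fn14ko (SE 0.16, adjusted p = 0.0651) and by −0.19 from MRL/MpJ (SE 0.16, adjusted p = 0.426). The coefficient of variation over the 10 spots was 15.6 to 42.3% in these 10 samples.

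*C1qb* had no spot valid in all 12 samples. Its levels were 0.297, 0.180, 0.360 and 0.232 in MRL/lpr, 0.219, 0.168, 0.182 and 0.154 in mice labelled Fn14ko, and 0.425, 0.186, 0.30 and 0.124 in MRL/MpJ, where the 2 Cy3 mice were above the 2 Cy5 mice. The strains overlapped, and the Cy5 readings of MRL/MpJ were below their negative controls. The log2 difference was 0.15 between MRL/lpr and MRL/MpJ, 0.53 between MRL/lpr and mice labelled Fn14ko and −0.38 between the latter and MRL/MpJ (SE 0.31 each, adjusted p 1.00, 0.225 and 0.429 over the 29608 genes of the fit with no filter). The median over all genes of that fit was itself 0.21, 1.34 and −0.97. With the weak array left out the differences were 0.15 (SE 0.32, adjusted p = 0.764), 0.28 (SE 0.32, adjusted p = 0.694) and −0.12 (SE 0.26, adjusted p = 0.747).

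C1q is read in this tissue beside its main producers, the microglia. Of 10 microglial markers, all had a spot valid in the 10 samples, and their summed rescaled level was 51.7 to 77.7 in MRL/lpr, 51.3 to 59.9 in mice labelled Fn14ko and 54.3 to 71.1 in MRL/MpJ. Among the defining ones, *P2ry12*, a purinergic receptor of resting microglia, was lower in MRL/lpr (0.184 to 0.412 in all 12 samples) than in mice labelled Fn14ko (0.621 to 0.706) and MRL/MpJ (0.575 to 0.788), with log2 differences of −0.94 (adjusted p = 0.00396) and −0.64 (adjusted p = 0.0177) without the weak array. *Itgam* went the other way, with 0.86 against mice labelled Fn14ko (adjusted p = 0.0308) and 0.43 against MRL/MpJ (adjusted p = 0.179), and *Aif1*, *Trem2*, *Cd68* and *Tyrobp* differed from MRL/MpJ by −0.07 to 0.05 (adjusted p 0.884 to 0.99). *Cx3cr1* ranged from 0.385 to 0.902, 0.731 to 1.01 and 0.788 to 1.59 and *Tmem119* from 0.531 to 0.752, 0.527 to 0.886 and 0.774 to 1.52 in the 3 strains in that order. In whole tissue, fewer cells of a type and less RNA per cell cannot be told apart. The part of microglial number in the C1q values was not tested.

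*C4b*, the C4 component cleaved by the C1 complex, gave the widest split within a strain among the 7 genes other than *C3ar1* and *C5ar1*. Its levels were 2.24 and 2.23 in MRL/lpr replicates 1 and 2 and 0.251 and 0.422 in the mice of the weak array. Mice labelled Fn14ko read 0.759, 0.403, 0.860 and 0.909, and MRL/MpJ mice 0.223, 0.663, 0.305 and 0.500. Over all 12 samples no difference passed the threshold, with a log2 difference of 1.14 (SE 0.68, adjusted p = 0.232) between MRL/lpr and MRL/MpJ, 0.29 (SE 0.68, adjusted p = 0.754) between MRL/lpr and mice labelled Fn14ko and 0.85 (SE 0.68, adjusted p = 0.654) between the latter and MRL/MpJ.

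Without the weak array *C4b* was highest in MRL/lpr, at 8.43 and 8.41 on the rescaled levels, against 3.01, 1.60, 3.51 and 3.64 in mice labelled Fn14ko and 0.858, 1.81, 1.21 and 1.55 in MRL/MpJ. Both MRL/lpr mice were above all 8 others, which overlapped. Of the 17936 genes, MRL/lpr lay above all MRL/MpJ mice in 13.9% and above all mice labelled Fn14ko in 16.1%. It was 6.45-fold higher in MRL/lpr than in MRL/MpJ (log2 2.69, SE 0.36, adjusted p = 0.00095) and 3.01-fold higher than in mice labelled Fn14ko (log2 1.59, SE 0.36, adjusted p = 0.0212), which were 2.15-fold higher than MRL/MpJ (log2 1.10, SE 0.29, adjusted p = 0.0261). Mice labelled Fn14ko and MRL/MpJ have no mouse on the weak array, so the change of their difference from 0.85 to 1.10 comes from the rescaling. The MRL/lpr side of the *C4b* values rests on 2 mice of 1 array. With all 12 samples and channels scaled on every probe spot, which moved the median of all genes in this comparison from 0.03 to −1.43, MRL/lpr lay below mice labelled Fn14ko by −1.17.

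*C2*, the protease that joins C4b, overlapped between the strains. Its levels were 0.445, 0.200, 0.151 and 0.290 in MRL/lpr, 0.329, 0.273, 0.261 and 0.304 in mice labelled Fn14ko and 0.170, 0.524, 0.172 and 0.403 in MRL/MpJ, where the Cy5 mice were above the Cy3 mice. The log2 differences were −0.17, −0.22 and 0.05 (SE 0.41 each, adjusted p 0.651 to 1.00 in the fit with no filter). With the weak array left out they were 0.25 (SE 0.38, adjusted p = 0.663), −0.05 (SE 0.38, adjusted p = 0.965) and 0.30 (SE 0.31, adjusted p = 0.479).

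*Serping1*, the C1 inhibitor, was 2.41-fold higher in MRL/lpr than in MRL/MpJ. The probe valid in all 12 samples read 0.728, 0.429, 0.245 and 0.485 in MRL/lpr, 0.280, 0.290, 0.229 and 0.289 in mice labelled Fn14ko and 0.219, 0.171, 0.189 and 0.155 in MRL/MpJ. MRL/lpr and mice labelled Fn14ko were both above all MRL/MpJ mice, which mice labelled Fn14ko were in 5.88% of genes, and overlapped through MRL/lpr replicate 3. The Cy5 readings of MRL/MpJ, 0.171 and 0.155, were below their negative controls. The log2 difference was 1.27 (SE 0.34, adjusted p = 0.043) between MRL/lpr and MRL/MpJ, 0.70 (SE 0.34, adjusted p = 0.153) between MRL/lpr and mice labelled Fn14ko and 0.57 (SE 0.34, adjusted p = 0.499) between the latter and MRL/MpJ. The call against MRL/MpJ held in 11 of 17 other settings (adjusted p 0.000272 to 0.545) and in 3 of the 12 fits that left out 1 mouse (0.0177 to 0.134), which lost it without MRL/lpr replicate 4 and without any 1 of the other 8 mice.

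Against mice labelled Fn14ko the difference turned to −0.15 on the scanner's processed signal and to −0.76 with channels scaled on every probe spot, where the median of all genes was −1.43. The intron-spanning probe of *Serping1* differed from the first. It read 0.828, 0.310, 0.148 and 0.380 in MRL/lpr, 0.305, 0.273, 0.230 and 0.281 in mice labelled Fn14ko and 0.230, 0.303, 0.167 and 0.243 in MRL/MpJ, so that all 3 strains overlapped. With both probes averaged and no filter, the log2 difference of MRL/lpr from MRL/MpJ was 0.92 (adjusted p = 0.18). Without the weak array both probes were valid, and their mean was 2.93 and 1.39 in MRL/lpr, 0.936 to 1.16 in mice labelled Fn14ko and 0.617 to 0.863 in MRL/MpJ, with no overlap (mice labelled Fn14ko lay above MRL/MpJ in 9.39% of genes). MRL/lpr lay above MRL/MpJ in 13.9% of genes and above mice labelled Fn14ko in 16.1%. The log2 differences were then 1.53 (SE 0.25, adjusted p = 0.00276), 0.90 (SE 0.25, adjusted p = 0.047) and 0.63 (SE 0.20, adjusted p = 0.0487). The last of these compares mice labelled Fn14ko with MRL/MpJ, neither of which has a mouse on the weak array. With both probes, all 12 samples and no filter that difference was 0.38 (adjusted p = 0.477), and its change to 0.63 comes from the rescaling.

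The receptors were at or near background. *C5ar1* was called well above background in 0 of 12 samples, and *C3ar1* in 2, both MRL/MpJ mice in Cy3, at 0.0128 and 0.0123. *C3ar1* read 0.0107 and 0.0166 in MRL/lpr replicates 1 and 2, 0.312 and 0.301 on the weak array, 0.01 to 0.0188 in mice labelled Fn14ko and 0.124 and 0.0981 in the Cy5 mice of MRL/MpJ. The high readings are thus those of the channels with the highest negative controls. No fold is given for either receptor.

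**Figure D3:**
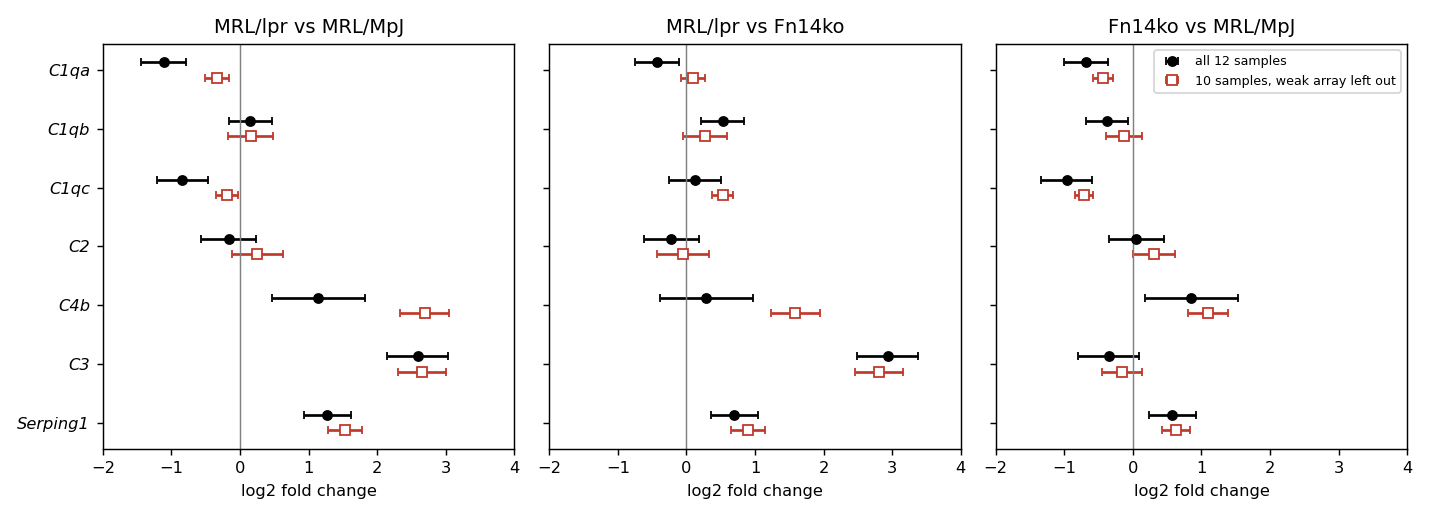
Log2 fold change (limma, points, with SE as bars) of the 7 genes other than *C3ar1* and *C5ar1* in the 3 comparisons, with all 12 samples (black) and without the array of MRL/lpr replicates 3 and 4 (red squares). *C3* (on most of its spots), *C1qb* and *Serping1* were well above background in 2 of 4 MRL/lpr and 2 of 4 MRL/MpJ mice. *C3* stays between 2.59 and 2.94 in both comparisons of MRL/lpr, while *C4b* moves from 1.14 to 2.69 against MRL/MpJ.

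Counted over the 9 genes with all 12 samples, 2 were called between MRL/lpr and MRL/MpJ (*C3* and *Serping1*), 1 between MRL/lpr and mice labelled Fn14ko (*C3*), and 0 between mice labelled Fn14ko and MRL/MpJ at an adjusted p under 0.05. In these comparisons 9.17%, 3.98% and 0.519% of the 8864 genes with a valid spot were called, and 2.46%, 6.83% and 0.145% of all 29608 without the filter. For mice labelled Fn14ko against MRL/MpJ, 1352 of the 8864 genes had an unadjusted p under 0.05. With that array left out 3 genes were called in each comparison (*C3*, *C4b* and *Serping1* in both of MRL/lpr, and *C1qc*, *C4b* and *Serping1* between mice labelled Fn14ko and MRL/MpJ), where 15.7%, 9.12% and 21.1% of 17936 genes were. In the last comparison neither strain has a mouse on that array. Its calls came with the rescaling and a spread estimated without that array.

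The rest of the pathway was read from a list of 54 further complement genes, of which 48 were on the array by name. With all 12 samples, 12 had a valid spot. Against MRL/MpJ, MRL/lpr had 0 of these 12 higher and 1 lower, *Lrp1*, an endocytic receptor (log2 −2.33, SE 0.59, adjusted p = 0.0351). Of the 12, 0 were called in the 2 other comparisons. The median log2 difference of the 12 was 0.11, 0.25 and −0.64, against −0.01, 0.03 and −0.16 over all genes tested. The ends of the list were *Lrp1* and *C1s1*, a protease of the C1 complex (1.79, adjusted p = 0.166), against MRL/MpJ, *Lrp1* (−1.44, adjusted p = 0.118) and *C1s1* (2.79, adjusted p = 0.0835) against mice labelled Fn14ko, and *C7* (−1.37, adjusted p = 0.713) and *C1qbp* (1.27, adjusted p = 0.234) between the latter and MRL/MpJ. Among the 36 genes taken from the fit with no filter, 2 were called, both higher in MRL/lpr than in mice labelled Fn14ko, where 6.83% of all genes were, *Hc* (the mouse C5 gene) and *C8a*, a subunit of the membrane attack complex. *Hc* was well above background in 6 and *C8a* in 2 of 12 samples. In mice labelled Fn14ko they read 0.0117 to 0.0275 and 0.01 to 0.0133, near the floor of 0.01. The median of the 36 in that comparison was 1.78, against 1.34 over all genes.

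In the 10 samples off the weak array 29 of the 48 genes had a valid spot. MRL/lpr was higher than MRL/MpJ in 3 of them and lower in 1, where 15.7% of all genes were called. *Hc* rose 5.04-fold (log2 2.33, adjusted p = 0.0298), *Csmd3*, of a family of membrane complement regulators, 3.02-fold (adjusted p = 0.0475) and *Vtn*, vitronectin, which binds the terminal complex, 2.00-fold (adjusted p = 0.00868). *Lrp1* was 1.84-fold lower (adjusted p = 0.0122). Against mice labelled Fn14ko, 4 of the 29 were higher in MRL/lpr and 0 lower, where 9.12% of all genes were called. These were *Hc* (7.73-fold, adjusted p = 0.0152), *Masp1*, a protease of the lectin pathway (6.36-fold, adjusted p = 0.00785), *Csmd3* (3.40-fold, adjusted p = 0.0449) and *Itgam*, the alpha chain of complement receptor 3 (1.82-fold, adjusted p = 0.0308). *Hc* had rescaled levels of 0.404 to 0.716 in MRL/lpr, 0.0478 to 0.110 in mice labelled Fn14ko and 0.0401 to 0.296 in MRL/MpJ, where its highest level on the scale of all 12 samples (0.109) was under the negative controls of the Cy5 channels. *Csmd3* read 0.321 to 0.458, 0.0920 to 0.127 and 0.0515 to 0.309 in that order. Its highest MRL/MpJ level on the scale of all 12 samples (0.117) was under those controls too. *Masp1* had rescaled levels of 0.238 to 0.411 in MRL/lpr and 0.034 to 0.0678 in mice labelled Fn14ko. On the scale of all 12 samples it read 0.01 to 0.0312 in mice labelled Fn14ko, at or near the floor of 0.01. The MRL/lpr side of all these folds is 2 mice of 1 array.

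Between mice labelled Fn14ko and MRL/MpJ, 2 of the 29 were higher and 4 lower, where 21.1% of all genes were called. *C1qbp*, a mitochondrial protein that binds C1q, was 2.87-fold higher (adjusted p = 0.0196) and *Vtn* 1.62-fold (adjusted p = 0.0172). The rescaled levels of *C1qbp* were 6.50 to 7.63 in mice labelled Fn14ko and spread from 1.06 to 6.05 in MRL/MpJ. *Masp1* was 3.06-fold lower (adjusted p = 0.0199), *C1ql1*, a C1q-like protein of neurons, 2.29-fold (adjusted p = 0.00723), *Lrp1* 1.56-fold (adjusted p = 0.0183) and *Susd4*, a sushi-domain regulator, 1.27-fold (adjusted p = 0.0486). For *Masp1* the rescaled levels were 0.034 to 0.0678 in mice labelled Fn14ko and 0.0615 to 0.355 in MRL/MpJ, whose highest level on the scale of all 12 samples was 0.258, near the negative controls of the Cy5 channels. The median log2 difference of the 29 was 0.30, 0.25 and −0.35 in the 3 comparisons, against −0.10, −0.04 and −0.07 over all genes tested.

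**Figure D4:**
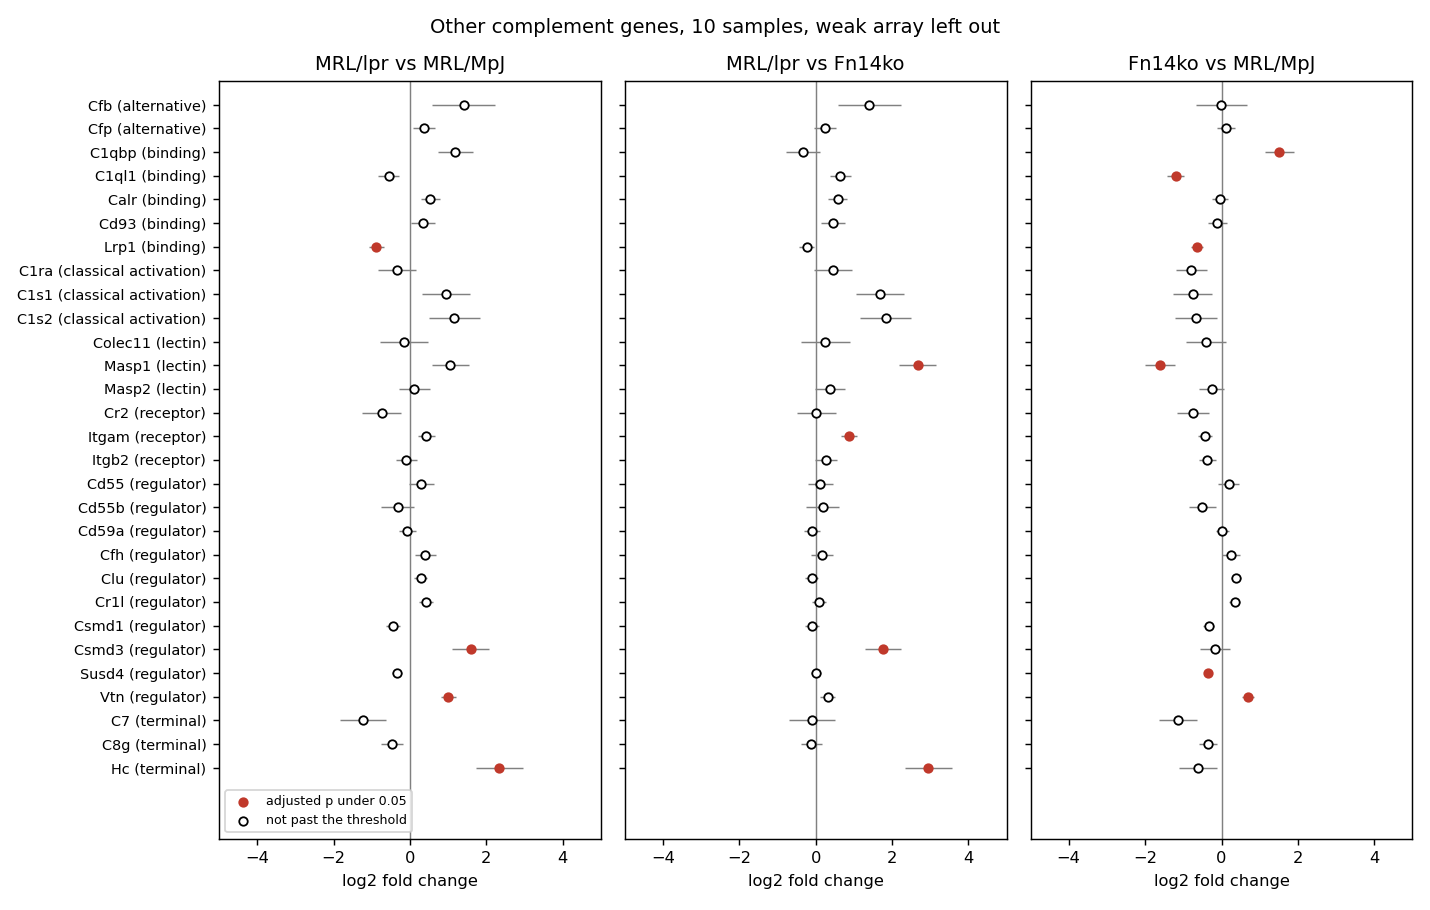
Log2 fold change with SE of the 29 further complement genes that had a valid spot in all 10 samples off the weak array, with each gene's role in brackets and a panel for each comparison. Red points passed an adjusted p of 0.05, which were 4 of 29 genes in each comparison of MRL/lpr and 6 between mice labelled Fn14ko and MRL/MpJ, against 15.7%, 9.12% and 21.1% of all genes.

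Other cell types moved with the strains too. Of 6 astrocyte markers, *Gfap* read 2.82 to 3.47 in MRL/lpr, 0.938 to 1.91 in mice labelled Fn14ko and 0.371 to 1.06 in MRL/MpJ with all 12 samples, and *Aqp4* 0.451 to 0.672, 0.424 to 0.578 and 0.431 to 0.584. The summed rescaled level of the list without the weak array was 40.9 to 50.5, 55.0 to 63.9 and 48.7 to 58.3, so that *Gfap* was highest in MRL/lpr while the sum of the list was below that of mice labelled Fn14ko and overlapped MRL/MpJ. In those 10 samples 2 of the 6 were called in each comparison of MRL/lpr, in opposite directions. *Gfap* was higher than in MRL/MpJ (log2 2.32, adjusted p = 0.00136) and mice labelled Fn14ko (1.32, adjusted p = 0.0331). *S100b* was lower than in MRL/MpJ (−0.87, adjusted p = 0.011) and mice labelled Fn14ko (−0.98, adjusted p = 0.00892). *Aqp4*, *Slc1a3*, *Aldh1l1* and *Gja1* were not called in these comparisons. The list of 6 choroid plexus markers, epithelium that borders the hippocampus, summed to 42.5 to 139 in MRL/lpr, 2.13 to 20.1 in mice labelled Fn14ko and 3.76 to 6.33 in MRL/MpJ. Its *Ttr* was at 2.13 to 33.4, 0.297 to 4.61 and 0.754 to 1.5 with all 12 samples. Without the weak array 3 of the 6 markers were called in the comparison of MRL/lpr with MRL/MpJ, against 15.7% of all genes, and 4 in that with mice labelled Fn14ko, against 9.12%. Vessel and meningeal markers summed to 44.6 to 78.4, 37.7 to 54.6 and 23.3 to 37.2, with *Dcn*, a gene of meningeal fibroblasts, at 1.40 to 2.84, 0.467 to 0.732 and 0.303 to 0.530 and the endothelial *Cldn5* at 0.530 to 2.35, 1.76 to 4.44 and 2.09 to 2.64. Blood markers summed to 199 to 283, 36.9 to 135 and 57.3 to 80.9.

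Leukocyte markers (3 of 7 with a valid spot) summed to 7.71 to 13.6 in MRL/lpr, 4.90 to 6.82 in mice labelled Fn14ko and 9.77 to 17.2 in MRL/MpJ, with *Cd3e* at 0.144 to 0.818, 0.0796 to 0.106 and 0.133 to 0.385 and *Ptprc* at 0.0789 to 0.323, 0.0452 to 0.0654 and 0.0366 to 0.222 over all 12 samples. These ranges include the weak array. Without it MRL/lpr differed from MRL/MpJ by −0.45 in *Cd3e* (adjusted p = 0.233), 0.26 in *Ptprc* (adjusted p = 0.734) and −0.27 in *Cd4* (adjusted p = 0.399). With all 12 samples *Cd3e* and *Ptprc* differed by 0.52 and 0.73. Against mice labelled Fn14ko the 3 differed by 0.65, 0.69 and 0.83 without that array (adjusted p = 0.148, 0.456 and 0.0363). Hippocampal neuron markers summed to 86.5 to 106, 78.5 to 117 and 127 to 258, but the members went both ways. Against MRL/MpJ in the 10 samples, *Spink8* (log2 4.06, adjusted p = 0.000376) and *Neurod6* (1.98, adjusted p = 0.00309) were higher in MRL/lpr and the abundant *Nrgn* was lower (−1.48, adjusted p = 0.00482), and the median of the list was 0.92. *Prox1*, taken from the fit with no filter, was higher as well (2.04, adjusted p = 0.0219). The part of these tissues and cells in the values of *C3*, *C4b*, *Serping1* and the other genes that separated MRL/lpr was not tested.

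**Figure D5:**
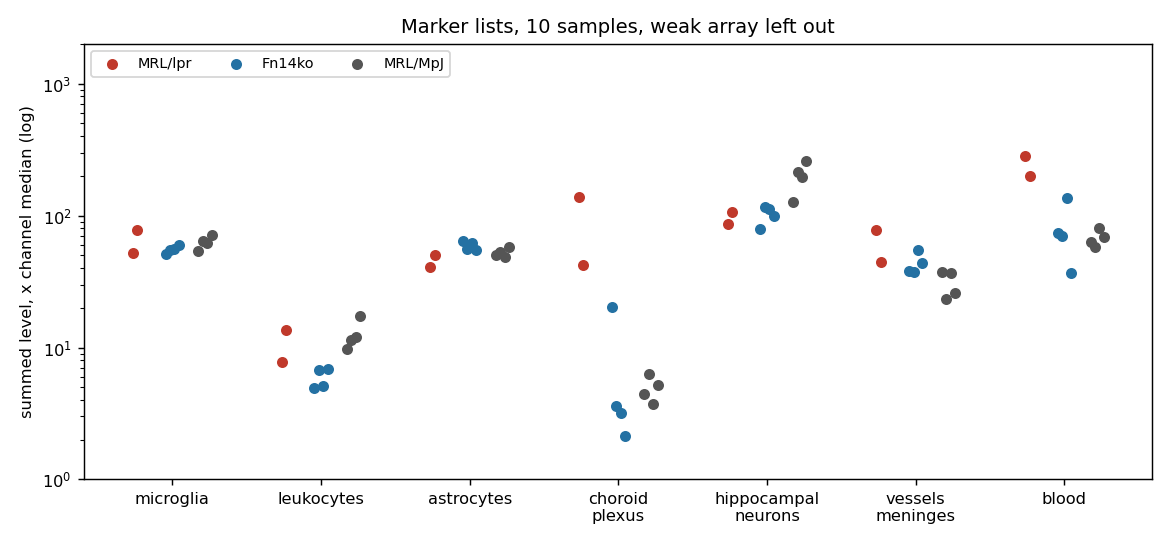
Summed level of each marker list in the 10 samples outside the weak array, as a multiple of the channel median on a log axis, with a point for each mouse. The choroid plexus list is the one with the widest gap, at 42.5 to 139 in MRL/lpr and 2.13 to 20.1 in the 8 other mice.

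The genes whose profile over the 10 samples was nearest to each pattern were looked up by the root mean square difference of centred log2 levels. For the mean of *C1qa*, *C1qb* and *C1qc* these were *Cln6* (0.135), *Dhcr7* (0.136) and *Zfp580* (0.136), where the median of 15200 genes was 0.542 and the pattern's own SD 0.301. For *C4b* they were *Cpne7* (0.462), *H2-Eb1* (0.466) and *H2-Ab1* (0.470), with a median of 1.16 over 15202 genes and an SD of 1.06 for *C4b* itself.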

How the data were processed

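Hippocampal RNA of 12 mice was hybridised to 6 Agilent 2-colour arrays, 2 mice of a strain per array. The files deposited by the authors hold the scanner intensity of every spot from Feature Extraction 12.1.0.3, per the labels, with probe positions on mm9. The sample notes name cortex in places, while source and tissue say hippocampus. Net intensity was the mean foreground minus the median local background. A spot was valid at 2 times background or more without an outlier flag, and 10877 spots, 10201 probes and 8864 genes were valid in all 12 samples. Genes without such a spot (*C1qb*, *C2*, *C3ar1*, *C5ar1*) came from a table with no filter, floored at 1% of the channel median. Each channel was divided by its median, spots were averaged per probe and probes per gene on the linear scale, and log2 was then taken. Strains were compared with limma 3.58.1 (R 4.3.3; lmFit, eBayes with trend, dye as covariate) and Benjamini-Hochberg adjustment over all genes, with a call at an adjusted p under 0.05. The number of arrays limits the precision, and that the mice of a strain share arrays and a slide limits what their spread measures. The members and gene lists were chosen with earlier results of these data known. All 9 members were named, with further complement genes that were called or lay at the ends of their list and the 3 genes nearest in profile to C1q and *C4b*. Alternatives were 20 other settings and leaving out each mouse, of which 4 were chosen after seeing the data.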

Additional observations from a re-analysis of the deposited data

Results flagged for a closer look

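In 27 groups of 4 mice (9 genes, 3 strains), 2 held a sample set far from the others, where chance sets apart about 1 in 20 groups. *Serping1* in mice labelled Fn14ko was lowest in replicate 3, at 0.229, with the nearest of the others at 0.280. *C5ar1*, not well above background in any sample, was highest in replicate 4 of the same mice, at 0.0246, with the other 3 at the floor of 0.01.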

How the results depend on the processing

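The count of the 9 members called was 2 (MRL/lpr against MRL/MpJ), 1 (MRL/lpr against mice labelled Fn14ko) and 0 (the latter against MRL/MpJ), and that of the 48 other complement genes 1, 2 and 0. For MRL/lpr against MRL/MpJ the members called were 1 with no filter, with a filter on spots well above background, on the processed signal, with the replicate block and by the methods' t-test with their rule, 0 with scaling on all probe spots, array as a random block, Cy3 samples only and the t-test after Benjamini-Hochberg adjustment, and 4 with array weights and with array as a block without the weak array. Against mice labelled Fn14ko they were 2 with all-spot scaling, 6 with weights, 3 without the weak array, 4 with array as a block without it, and 0 with the random block, Cy3 only, the adjusted t-test and negative controls subtracted without the weak array. Between mice labelled Fn14ko and MRL/MpJ they were 5 with weights and with the block without the weak array, 3 without that array, and 1 with negative controls subtracted as well and by the t-test. Leaving out 1 mouse gave 1 to 4, 1 to 3 and 0 to 0.

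The other complement genes called in MRL/lpr against MRL/MpJ were 4 on the processed signal, without the weak array and with negative controls subtracted, 2 with quantile normalization, 23 with weights, 11 with negative controls subtracted without the weak array, 18 with the block without it, and 0 with all-spot scaling, the random block, no trend, Cy3 only and both t-tests. Against mice labelled Fn14ko they were 8 on the processed signal and with all-spot scaling, 36 with weights, 5 without the weak array, 6 and 9 with controls subtracted and with the block without it, and 0 with the random block, no dye term, the replicate block, a floor at 5%, controls subtracted, Cy3 only and both t-tests. Between mice labelled Fn14ko and MRL/MpJ they were 34 with weights, 7 without the weak array, 1 with controls subtracted without it and by the t-test, and 28 with the block without it. Leaving out 1 mouse gave 0 to 6, 0 to 35 and 0 to 0. Over all 8864 genes, 813, 353 and 46 were called, 7, 4 and 0 with the random block (correlation 0.71) and 52, 3261 and 0 with all-spot scaling, which by its construction shifts the filtered genes of a comparison by one amount and moved their median to −0.55, −1.43 and 0.75. With the block without the weak array the correlation was −0.26. Over all genes 0 were called with Cy3 only in MRL/lpr against MRL/MpJ.

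Log2 differences that changed sign are given by setting. In MRL/lpr against MRL/MpJ, *C1qb* was −0.029 with Cy3 only, −1.11 on the processed signal and −0.39 with all-spot scaling, and *C2* was 0.70 with Cy3 only, 0.34 with normexp and 0.25 without the weak array. In MRL/lpr against mice labelled Fn14ko, *C1qa* was 0.28 with weights, 0.10 without the weak array and 0.077 with controls subtracted as well, *C1qb* −0.59 with controls subtracted, −0.12 processed, −0.52 with quantile and −0.93 with all-spot scaling, *C1qc* −0.45 with Cy3 only, −0.28 with no filter or the well-above filter, −0.31 with controls subtracted, −0.62 processed, −0.12 with quantile and −1.33 with all-spot scaling, *C2* 0.29 with normexp, *C4b* −0.034 with Cy3 only, −0.24 with controls subtracted and −1.17 with all-spot scaling, and *Serping1* −0.15 processed and −0.76 with all-spot scaling. Between mice labelled Fn14ko and MRL/MpJ, *C1qa* was 0.24 with all-spot scaling, *C1qb* 1.50 and 2.56 with controls subtracted (all samples, without the weak array), 0.55 with quantile and 0.54 with all-spot scaling, *C2* −0.17 with weights and −0.12 by the t-test, and *C3* 0.34 with Cy3 only, 1.40 and 2.40 with controls subtracted, 0.44 with quantile and 0.57 with all-spot scaling. Leaving out 1 mouse turned *C1qb* (−0.052 to 0.34) and *C2* (−0.56 to 0.092) in the first comparison, *C1qc* (−0.18 to 0.48) and *C4b* (−0.30 to 0.88) in the second and *C2* (−0.14 to 0.31) in the third. Apart from that shift the cause was not tested. Subtracting negative controls, Cy3 only and both combined settings without the weak array were chosen after seeing the data.

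The replicate numbers share only a number and a dye: deviations of same-numbered mice correlated at −0.40 to 0.50. With the replicate block 506, 179 and 0 genes were called, and *C3* was the 1 member called in both comparisons of MRL/lpr. The weak signal of MRL/lpr replicates 3 and 4 limits every comparison with that strain.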
